A study of Schizosaccharomyces pombe with 9 samples.

Results

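STF9 and STF6 are mutants of the fission yeast Schizosaccharomyces pombe, and their RNA levels were set directly against each other, gene by gene. The comparison used all genes that passed a standard filter on low counts in the 6 libraries of the pair, which were 5870 of the 6986 genes in the count table. Of the 1116 genes left out, 415 had no count in any of the 6 libraries, and none had more than 72 counts over all 6.

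Both mutants are described as suppressors, with rpb1-CTD-T4A29 (T4A below) as their parental control. In T4A, Thr4 is mutated in the C-terminal repeat domain (CTD) of Rpb1, the largest RNA polymerase II subunit, and the series title links that allele to over-repression of the phosphate (PHO) regulon. All groups were log phase cultures in vegetative growth at 30 °C in YES, a rich medium, and each group had 3 libraries of poly(A)+ RNA. Each group has 1 lab strain number in the labels, so the suppressor mutation and any other difference between the strains cannot be told apart. The sources used here do not give the genes mutated in STF9 and STF6, nor whether the 3 libraries of a group came from separate cultures. P-values therefore measure the spread between these libraries, which may be technical.

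Fission yeast takes up phosphate through a small regulon. Its members are the cell surface acid phosphatase Pho1, the phosphate transporter Pho84 and the glycerophosphodiester transporter Tgp1. In phosphate-rich medium each is held down by transcription of a long non-coding RNA (lncRNA) that starts upstream and runs across its promoter, and early termination of that lncRNA frees the promoter. Phosphorylation marks on the CTD, the cleavage and polyadenylation machinery and inositol pyrophosphates made by Asp1 all act on this termination.

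Total counts of the 6 libraries ranged from 15374453 to 22909747, the lowest being STF6 replicate 3. The first principal component held 38.7% of the variance, with STF6 replicate 1 at one end and STF9 replicate 3 at the other. Every STF6 library lay below every STF9 library on it. The groups were close where they met, at −2.17 for STF6 replicate 3 and −1.60 for STF9 replicate 1. The second, with 20.8%, set STF6 replicate 3 apart from the other 5 libraries. The median absolute log2 difference between 2 libraries was 0.0783 to 0.131 within a group and 0.0757 to 0.175 between the groups. Distances between the mutants thus overlapped with those among replicates.

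The mutants had closely matching transcript levels. At an adjusted p under 0.05 by edgeR's quasi-likelihood test with Benjamini-Hochberg adjustment over all 5870 genes, 7 genes were higher in STF9 and 10 were lower in STF9, together 0.29% of those tested (0.119% higher, 0.17% lower). Levels are CPM (counts scaled to a common library size) after TMM scaling, and folds are log2 ratios of STF9 over STF6 with their standard error. The median absolute log2 fold over all genes was 0.0868, the 90th percentile 0.251 and the 99th percentile 0.619. For 5678 genes (96.7%) the 95% confidence interval of the fold lay wholly within 2-fold either way, and for 5164 (88.0%) it lay within 1.5-fold. Only 6 genes had a log2 fold of at least 1 in size, and SPNCRNA.1115 was the single one of them at or above a mean level of 3 log2 CPM. The number of calls depended on the fit. A robust estimate of the spread called 5 genes higher and 10 lower. With the replicate number as a block, 229 were called higher and 78 lower. Without STF9 replicate 1 the counts were 242 higher and 80 lower, and without STF9 replicate 2 they were 0 and 6. In a fit that also held the 3 T4A libraries, edgeR called 0 genes either way, with 178 at an unadjusted p under 0.05. DESeq2 on the 6 libraries called 15 higher and 19 lower, but gave an adjusted p to 3480 genes only. With library size as the only scaling, 1 gene was called higher and 9 lower.

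**Figure D1:**
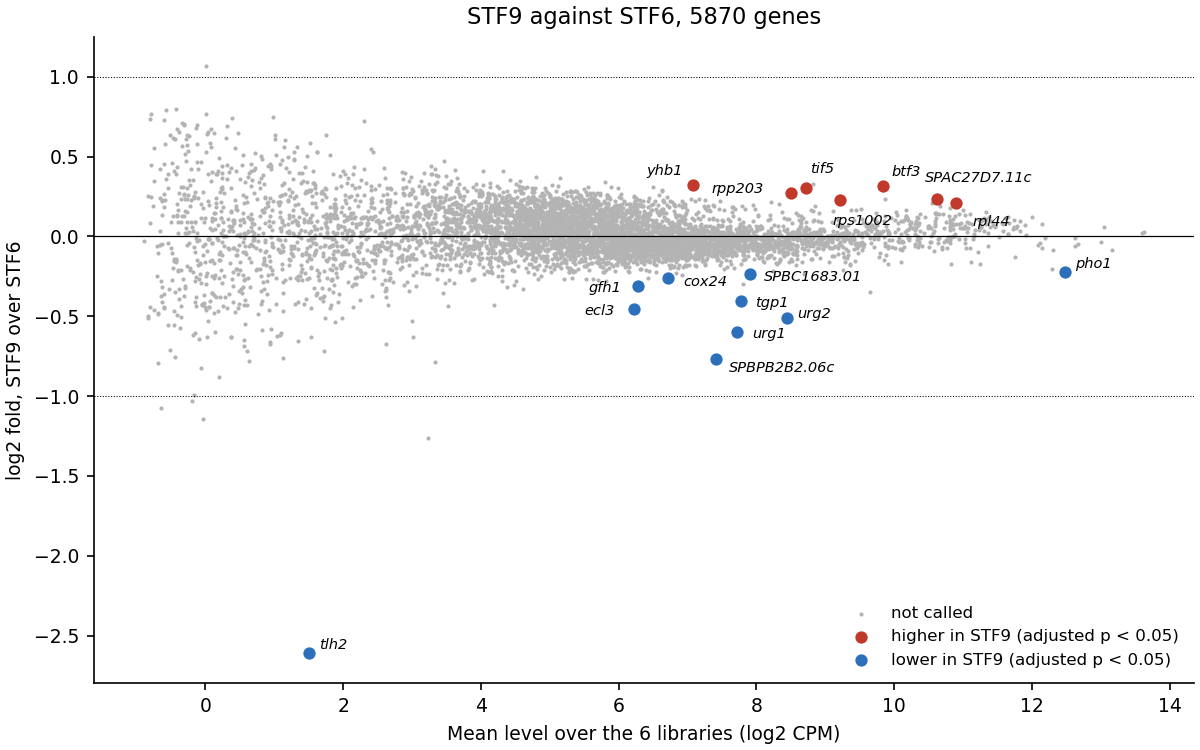
Log2 fold of STF9 over STF6 (vertical axis) against the mean level over the 6 libraries in log2 CPM (horizontal axis), 1 point a gene for 5870 genes. Coloured points are the 7 genes higher and the 10 genes lower in STF9 at an adjusted p under 0.05, and the dotted lines mark 2-fold; tlh2 at a log2 fold of −2.61 is the called gene beyond them.

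The 10 genes lower in STF9 were, by size of fold, tlh2, SPBPB2B2.06c, urg1, urg2, ecl3, tgp1, gfh1, cox24, SPBC1683.01 and pho1. They held 2 of the 3 members of the PHO regulon, 3 genes from the list of other phosphate genes and 2 of the 3 uracil-regulated genes. These lists were chosen with earlier results of these data known, so the counts are descriptive only. The 7 genes higher in STF9 were yhb1, btf3, tif5, rpp203, SPAC27D7.11c, rps1002 and rpl44. Of these, rps1002 and rpl44 were in the list of cytosolic ribosomal proteins and tif5 in that of translation factors. All 17 had STF9 libraries that did not overlap with the STF6 libraries, as had 17.0% of all genes tested (9.69% with every STF9 library above, 7.34% with every STF9 library below). The interval of 16 of the 17 lay within 2-fold, and that of tlh2 beyond it.

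**Figure D2:**
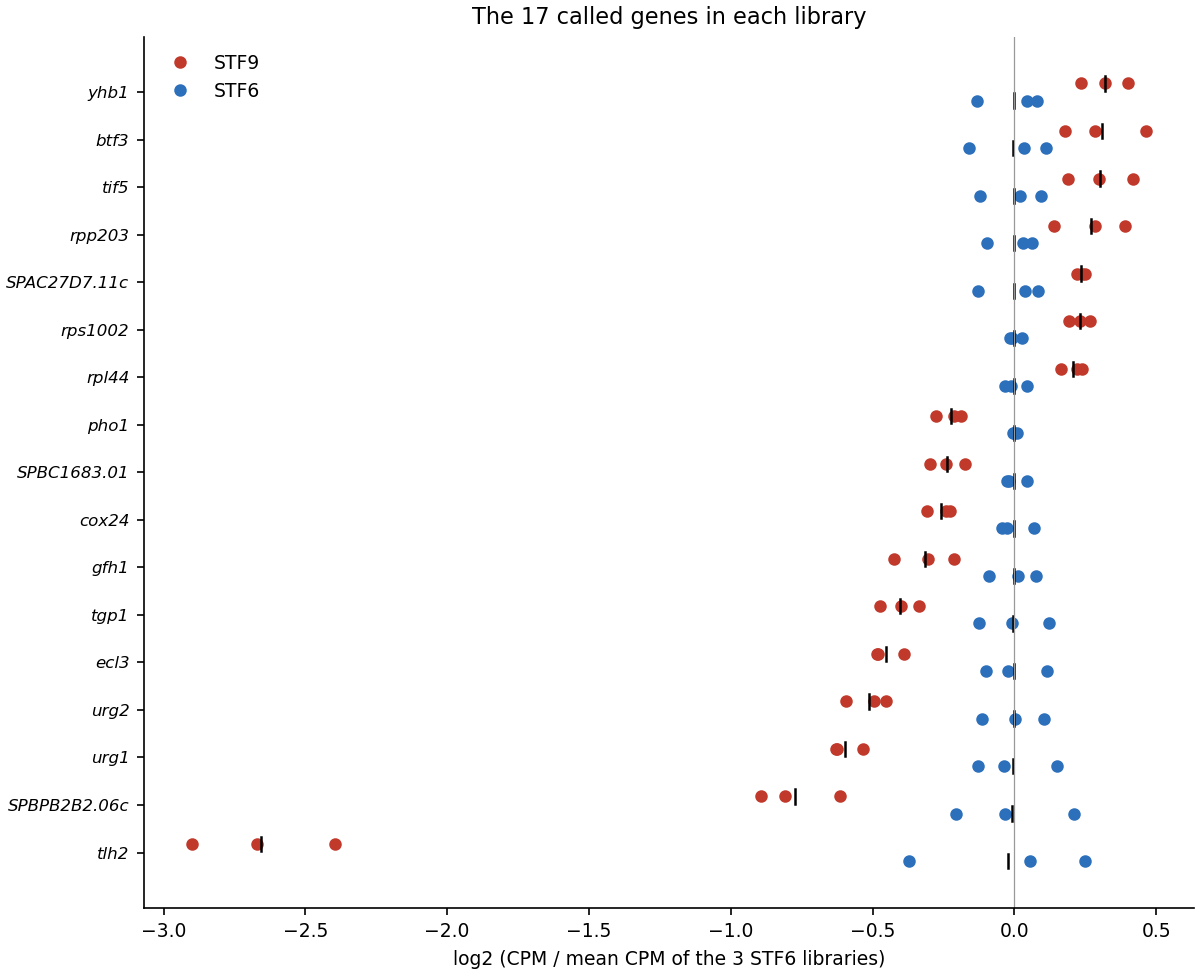
The 17 called genes in each library, as the log2 of the CPM over the mean CPM of the 3 STF6 libraries (horizontal axis), with STF9 above STF6 in each row. Points are libraries and short bars are group means; the STF9 points lie clear of the STF6 points in every row, and tlh2 stands farthest out.

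Among the PHO genes, all 3 were lower in STF9 by value and 2 passed the test. tgp1 had 188, 197 and 179 CPM in STF9, against 271, 247 and 228 CPM in STF6. Its fold was −0.40 ± 0.06 (edgeR adjusted p = 7.35e-04). Every STF9 library lay below every STF6 library, and the fold was called with each library left out in turn. pho1, the most abundant of the called genes, had 5298, 5382 and 5069 CPM in STF9 and 6106, 6128 and 6172 CPM in STF6. Its fold was −0.22 ± 0.04 (edgeR adjusted p = 0.00862), and the STF6 libraries lay within a narrow band above all STF9 libraries. The call of pho1 ended without STF9 replicate 2 (edgeR adjusted p = 0.0787) and without STF9 replicate 3 (0.141). pho84 had 2179, 2094 and 1989 CPM in STF9, against 2394, 2325 and 2294 CPM in STF6. Its libraries did not overlap either, but its fold of −0.16 ± 0.04 did not pass (edgeR adjusted p = 0.128). In T4A, scaled together with the mutants over all 9 libraries, tgp1 had 8.22, 12.4 and 7.07 CPM, pho1 had 105, 127 and 94.3 CPM, and pho84 had 115, 138 and 118 CPM. Every library of both mutants lay far above every T4A library for these RNAs, a difference not tested here.

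Phosphate genes outside the regulon went the same way for the members that passed. SPBPB2B2.06c, a predicted extracellular 5'-nucleotidase, had 141, 116 and 123 CPM in STF9, against 249, 187 and 211 CPM in STF6. Its fold was −0.77 ± 0.08 (edgeR adjusted p = 8.89e-06), the largest among called genes with over 1 CPM in every library. T4A had 2.69, 8.02 and 2.09 CPM of it. ecl3, which encodes an extender of chronological lifespan, had 65.8, 61.5 and 61.7 CPM in STF9, against 93.3, 84.7 and 80.4 CPM in STF6. Its fold was −0.45 ± 0.07 (edgeR adjusted p = 9.82e-04), and T4A had 1.37, 3.09 and 1.97 CPM. Both were called with each library left out. In the RefSeq gene order ecl3, pho84 and pho1 follow each other with no other counted gene between them.

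SPBC1683.01, a predicted phosphate transporter, had 219, 229 and 210 CPM in STF9 and 266, 255 and 254 CPM in STF6. Its fold was −0.24 ± 0.05 (edgeR adjusted p = 0.0314). The groups were apart, yet the call ended without STF6 replicate 1 (adjusted p = 0.141), STF6 replicate 2 (0.110), STF9 replicate 2 (0.0891) or STF9 replicate 3 (0.170). The other 5 members tested did not pass. Folds were −0.13 for vtc4, a subunit of the vacuolar polyphosphate synthase, −0.11 for the vacuolar phosphatase gene pho8, −0.08 for gde1, −0.01 for pho7, the transcription factor that activates the regulon, and 0.21 for the kinase gene csk1. Of these 8 phosphate genes 3 were called lower, and their median log2 fold was −0.12, beside 0.01 for all genes. The list was set by symbol with earlier results of these data known, so these values are no independent support. The product texts of ecl3 and SPBPB2B2.06c do not mention phosphate.

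SPNCRNA.1343, the non-coding RNA that stands next to tgp1 on the other strand, was low in both groups. It had 97, 83 and 103 counts in STF9 and 70, 74 and 77 counts in STF6. Its fold of 0.43 ± 0.17 did not pass (edgeR adjusted p = 0.241). The table's non-coding RNA next to pho1, SPNCRNA.446, follows pho1 on the same strand and had 0 counts in all 6 libraries. It is not on the upstream side of pho1, where pho84 is the next counted gene.

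The 5 inositol pyrophosphate genes tested showed none of the calls. asp1, whose protein makes and breaks down inositol pyrophosphates, had 46.9, 48.5 and 53.3 CPM in STF9 and 45.3, 47.4 and 46.6 CPM in STF6. These libraries overlapped, and the 95% interval of its log2 fold ran from −0.06 to 0.25. The fold of aps1, a diphosphoinositol polyphosphate hydrolase, was −0.14 ± 0.05 (edgeR adjusted p = 0.239). Folds were 0.07 for arg82, −0.01 for ipk1 and 0.00 for kcs1, all inositol polyphosphate kinases. The 95% intervals of the 5 genes together spanned −0.25 to 0.25 on the log2 scale, so a difference of 1.5-fold would lie outside all of them.

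The uracil-regulated genes urg1, urg2 and urg3, with no other counted gene between them in the RefSeq order, made up the group with the largest median difference. urg1, a predicted GTP cyclohydrolase II, had 164, 175 and 164 CPM in STF9, against 232, 282 and 248 CPM in STF6. Its fold was −0.60 ± 0.06 (edgeR adjusted p = 6.75e-06). urg2, a predicted uracil phosphoribosyltransferase of the pyrimidine salvage pathway, had 289, 298 and 270 CPM in STF9, against 376, 439 and 408 CPM in STF6. Its fold was −0.51 ± 0.05 (edgeR adjusted p = 9.55e-06). Both were lower in STF9 than in STF6 with clear gaps between the groups, and both were called with each library left out. urg3 had 198, 190 and 183 CPM in STF9 and 209, 228 and 218 CPM in STF6, and its fold of −0.20 ± 0.05 did not pass (edgeR adjusted p = 0.118). T4A varied more between its libraries, with 70.0, 178 and 95.8 CPM of urg1 and 122, 244 and 181 CPM of urg2.

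tlh2 (SPBCPT2R1.08c, named Tlh1 in the deposited product text), a RecQ-type helicase gene at an end of chromosome II, had the largest fold of all genes. It had 12, 13 and 17 counts in STF9 (0.627, 0.736 and 0.889 CPM), against 103, 82 and 88 counts in STF6 (4.86, 3.62 and 5.57 CPM). The fold was −2.61 ± 0.24 (edgeR adjusted p = 4.27e-06), with a 95% interval of −3.12 to −2.10. STF9 was uniformly low and STF6 uniformly higher, and the gene was called with each library left out. T4A was uneven, with 47, 14 and 111 counts. tlh1, a near-identical copy at an end of chromosome I, had 0, 1 and 1 counts in STF9, 6, 3 and 3 counts in STF6 and 0, 0 and 2 counts in T4A, and was not tested. How reads that match both copies were handled is not given here, so the split between tlh1 and tlh2 is uncertain. Of the 20 genes nearest each end of chromosomes I and II, 28 were in the table by ID and 5 passed the filter, with tlh2 the only one called. The median log2 fold of these 5 genes, tlh2 included, was −0.44. Only 1 of them had an unadjusted p under 0.05 by edgeR, and the intervals of 2 lay within 2-fold. The set was formed after the values were seen.

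cox24 and gfh1 completed the lower set with small folds. cox24, a predicted mitochondrial mRNA processing protein, had 98.3, 97.2 and 92.8 CPM in STF9 and 120, 113 and 112 CPM in STF6, a fold of −0.26 ± 0.05 (edgeR adjusted p = 0.0408). gfh1, a subunit of the gamma tubulin complex, had 74.5, 69.8 and 64.4 CPM in STF9 and 90.9, 81.1 and 87.0 CPM in STF6, a fold of −0.31 ± 0.07 (edgeR adjusted p = 0.0461). The groups did not overlap for either gene. cox24 stayed under the threshold only without STF6 replicate 3 (adjusted p = 0.0344) or STF9 replicate 1 (0.0167), and with each of the other 4 libraries left out its adjusted p was between 0.165 and 0.262. gfh1 stayed under it only without STF9 replicate 1 (0.00732), with values of 0.0738 to 0.221 otherwise.

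The genes higher in STF9 were moderately to highly expressed and their folds were between 0.21 and 0.32. rps1002, a 40S ribosomal protein gene, had 627, 645 and 661 CPM in STF9, against 559, 543 and 546 CPM in STF6, a fold of 0.23 ± 0.04 (edgeR adjusted p = 0.0173). rpl44, a 60S ribosomal protein gene, had 1980, 2059 and 2082 CPM in STF9, against 1726, 1753 and 1819 CPM in STF6, a fold of 0.21 ± 0.04 (edgeR adjusted p = 0.0283). rpp203, an acidic protein of the 60S stalk, had 360, 398 and 428 CPM in STF9, against 341, 306 and 334 CPM in STF6, a fold of 0.27 ± 0.06 (edgeR adjusted p = 0.0402). Gaps between the groups were clear for rps1002 and rpl44 and narrow for rpp203, where STF9 replicate 1 lay close to STF6 replicate 1. The call of rps1002 ended without STF6 replicate 2 (adjusted p = 0.0770), STF9 replicate 2 (0.147) or STF9 replicate 3 (0.119). That of rpp203 ended without the same 3 libraries, at 0.213, 0.196 and 0.261. rpl44 kept its call only without STF6 replicate 3 (0.00293) or STF9 replicate 1 (0.0167), with 0.0788 to 0.207 otherwise.

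tif5, which encodes translation initiation factor eIF5, had 429, 462 and 502 CPM in STF9, against 346, 381 and 401 CPM in STF6, a fold of 0.30 ± 0.06 (edgeR adjusted p = 0.0209). btf3, the beta subunit of the nascent polypeptide-associated complex, had 923, 994 and 1126 CPM in STF9, against 731, 837 and 882 CPM in STF6, a fold of 0.31 ± 0.07 (edgeR adjusted p = 0.0398). For both genes STF9 replicate 3 was the highest library and STF6 replicate 1 the lowest. Leaving out STF6 replicate 1, STF6 replicate 2, STF9 replicate 2 or STF9 replicate 3 ended both calls, with adjusted p between 0.0723 and 0.141 for tif5 and between 0.0960 and 0.282 for btf3.

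yhb1, a nitric oxide dioxygenase that detoxifies nitric oxide, had 141, 158 and 150 CPM in STF9, against 109, 127 and 123 CPM in STF6, a fold of 0.32 ± 0.06 (edgeR adjusted p = 0.0173). SPAC27D7.11c, a But2 family protein similar to cell surface molecules, had 1706, 1720 and 1688 CPM in STF9, against 1323, 1486 and 1532 CPM in STF6, a fold of 0.24 ± 0.05 (edgeR adjusted p = 0.0359). Its STF9 libraries were close together, while STF6 replicate 1 was lower than the other STF6 libraries. The call of yhb1 ended without STF6 replicate 1 (adjusted p = 0.0832) or STF9 replicate 2 (0.194). SPAC27D7.11c was called only without STF6 replicate 3 (0.00534) or STF9 replicate 1 (0.0259), with 0.0701 to 0.257 otherwise.

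By RefSeq's annotation, tgp1, tif5, rpl44, btf3, rpp203 and gfh1 overlap with a counted gene on the other strand. The kit marks strand, but whether counting used it is not given in these sources, so reads of such pairs may not be fully separated. None of these 6 neighbours on the other strand was called. Beside the genes higher in STF9, pli1 (rpl44) had a fold of 0.25 (edgeR adjusted p = 0.135), btf3-antisense-1 (btf3) of 0.51 (edgeR adjusted p = 0.251), SPAC1071.09c (rpp203) of 0.16 and med1 (tif5) of −0.13. Beside the genes lower in STF9, ubc8 (gfh1) had a fold of −0.20 (edgeR adjusted p = 0.252) and SPBC1271.10c (tgp1) of 0.00. On the same strand, pol4 overlaps with tif5, wsp1 with btf3 and SPNCRNA.995 with SPAC27D7.11c, and strand does not separate these pairs. Their folds were 0.20, 0.10 and 0.14, and none passed. The part of overlapping neighbours in the folds of the called genes was not tested.

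Gene groups are described next by the number of members called, the number at an unadjusted p under 0.05 and the median log2 fold. Over all genes, 10.1% were higher and 6.05% lower in STF9 at an unadjusted p under 0.05, and 52.1% had a log2 fold above 0. The 130 cytosolic ribosomal protein genes, chosen by product text, held 2 calls, rps1002 and rpl44, and 58 genes higher and 0 lower at that unadjusted level. Of the 130 genes, 122 had a log2 fold above 0. In 79 (60.8%) every STF9 library lay above every STF6 library, beside 9.69% of all genes tested. The median log2 fold of the 130 genes was 0.09, with quartiles of 0.06 and 0.12. The genes' mean log2 CPM was 10.42, 10.42 and 10.46 in STF9, against 10.35, 10.38 and 10.30 in STF6. The text rule did not take in rpp203, whose product is worded as an acidic ribosomal protein. The next members of the list by p, rpl1901 and rpl1201, had folds of 0.19 and 0.31, each with an edgeR adjusted p of 0.0550. Several of these proteins are encoded by near-identical paralogs, for which single-gene values are uncertain.

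Other genes of the translation machinery had few calls. Of 45 cytosolic translation factor genes, tif5 was called, 8 were higher and 0 lower at an unadjusted p under 0.05, and the median log2 fold was 0.03. hcr1 had a fold of 0.29 (edgeR adjusted p = 0.0777), tif52 of 0.17 and tif212 of 0.20. Ribosome biogenesis genes other than small nucleolar RNAs numbered 115, with 23 higher and 2 lower at that level and a median of 0.10. Their mean log2 CPM overlapped, with 6.21, 6.30 and 6.40 in STF9 and 6.19, 6.22 and 6.26 in STF6. noc1, a ribosome assembly gene, had a fold of 0.19. For ribosome biogenesis with its small nucleolar RNAs, 147 genes, the median of 0.07 was 0.02 without STF9 replicate 3 and 0.13 without STF9 replicate 1. Among 37 aminoacyl-tRNA synthetase genes none was called, the median was 0.01, and asc1, hrs1, SPCC18.08 and SPAC24C9.09 had folds of 0.22, 0.16, 0.18 and 0.20.

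The 10 CTD kinase and phosphatase genes had no call, but 6 were higher and 0 lower at an unadjusted p under 0.05. In the same number (60%) every STF9 library lay above every STF6 library, beside 9.69% of all genes tested. The median log2 fold of the 10 genes was 0.22. cdk9, the catalytic subunit of the elongation kinase P-TEFb, had 49.3, 50.3 and 56.8 CPM in STF9, against 40.8, 42.9 and 46.1 CPM in STF6. Its fold was 0.27 ± 0.08 (edgeR adjusted p = 0.143), and that of its cyclin gene pch1 was 0.23. Of the Lsk1 kinase complex, which phosphorylates Ser2, lsc1 had a fold of 0.29, lsg1 of 0.32 and lsk1 itself of −0.03. Of the TFIIH kinase, pmh1 had a fold of 0.25, mcs2 of 0.03 and mcs6 of 0.01. The CTD phosphatase gene fcp1 had a fold of 0.13. The list also held csk1, whose product is a cyclin-dependent kinase activating kinase. It is 1 of the 6, and its fold of 0.21 is also given among the phosphate genes above. The group's mean log2 CPM was 5.13, 5.16 and 5.23 in STF9, against 4.97, 5.02 and 5.02 in STF6. All 10 intervals lay within 2-fold.

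Of 19 genes for 3' processing and termination none was called, 2 were higher and 1 lower at an unadjusted p under 0.05, and the median was 0.06. rna14, a cleavage factor subunit, had 75.1, 80.9 and 88.0 CPM in STF9, against 63.0, 70.9 and 71.4 CPM in STF6, a fold of 0.25 ± 0.07 (edgeR adjusted p = 0.137). ssu72, a CTD phosphatase within the cleavage and polyadenylation factor, had 18.1, 19.3 and 20.9 CPM in STF9, against 14.6, 15.8 and 15.9 CPM in STF6, a fold of 0.33 ± 0.10 (edgeR adjusted p = 0.160). The groups were apart for both genes. swd22, of the same factor's phosphatase module, had a fold of −0.15, and the termination factor gene rhn1 one of 0.16. The 12 nuclear RNA elimination genes had a median of 0.09, which was 0.04 without STF9 replicate 3 and 0.13 without STF9 replicate 1, with folds of 0.14 for mtl1, 0.10 for rmn1, 0.19 for pir2 and −0.09 for pab2.

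Splicing genes had a median log2 fold of 0.15 over 77 genes, with no call, and 20 higher and 1 lower at an unadjusted p under 0.05. The highest by p were usp104, with 101, 116 and 121 CPM in STF9 and 88.8, 95.1 and 101 CPM in STF6 and a fold of 0.25 ± 0.07 (edgeR adjusted p = 0.132), then usp105, ntr1 and prp28 with folds of 0.22, 0.21 and 0.26. The mean log2 CPM was 4.90, 4.997 and 5.10 in STF9 and 4.81, 4.90 and 4.95 in STF6, so the groups overlapped. Without STF9 replicate 3, the highest library, the median was 0.07. For the CTD genes it was 0.18 without that library.

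**Figure D3:**
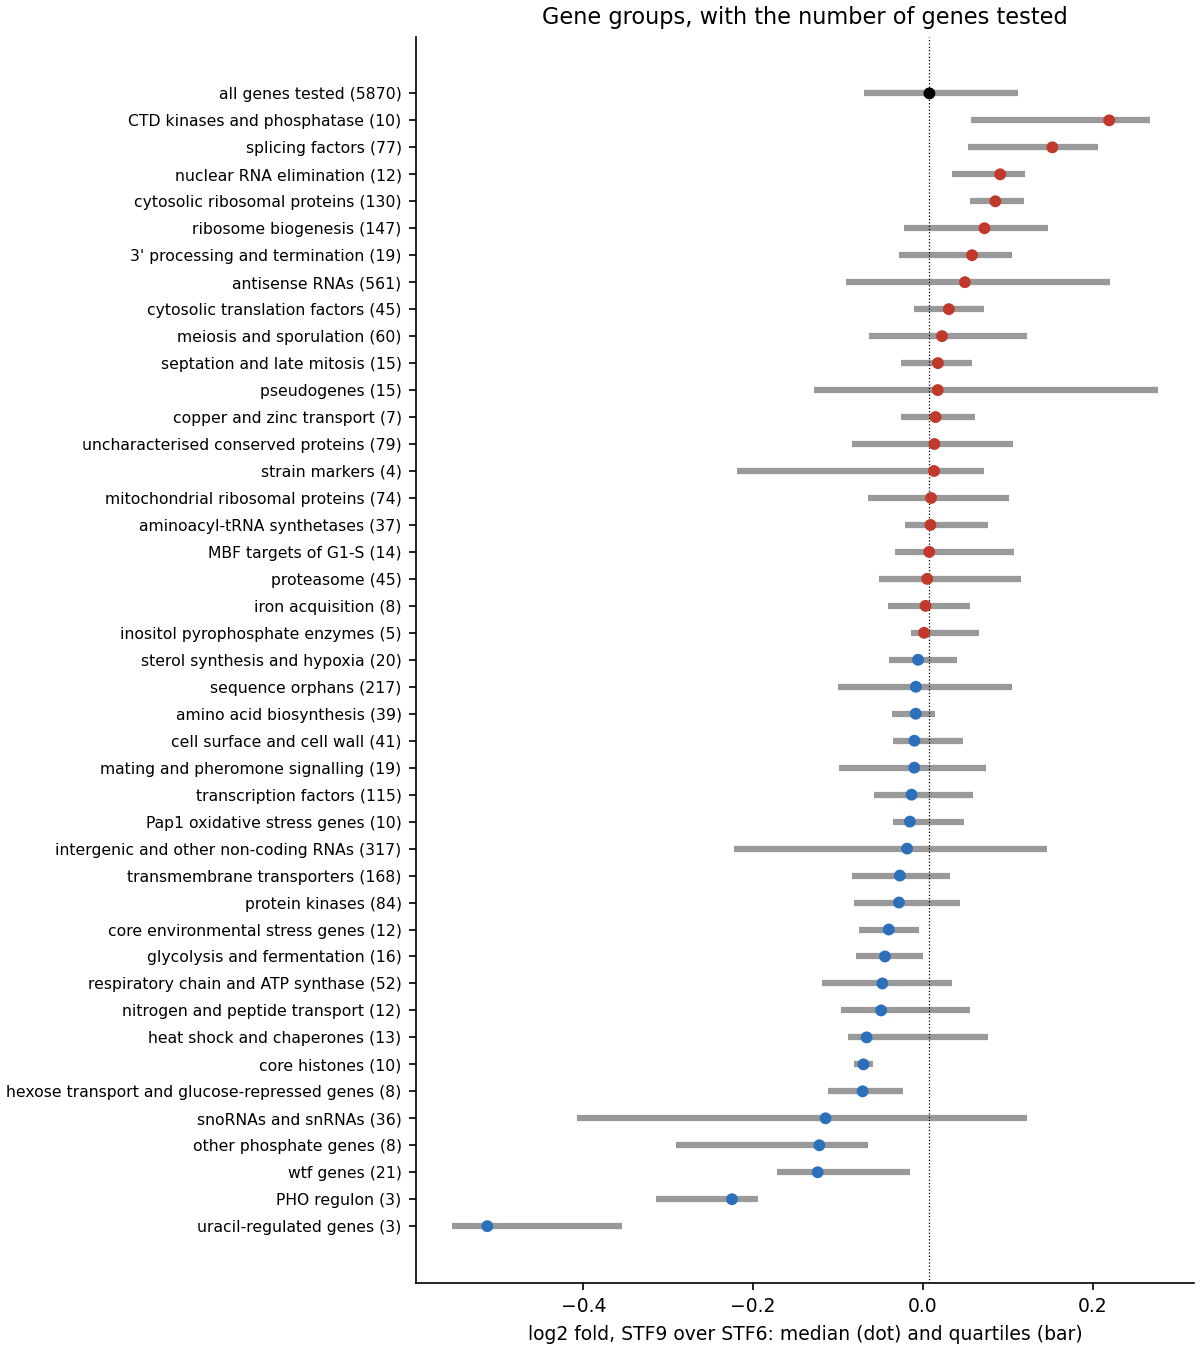
Median (dot) and quartiles (bar) of the log2 fold of STF9 over STF6 for gene groups with at least 3 genes tested, with the number of genes in brackets. Black is all genes tested, red a median above 0 and blue a median below 0; the uracil-regulated genes at −0.51 and the CTD kinases and phosphatase at 0.22 are the extremes, and the dotted line is the median of all genes at 0.01.

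All 10 core histone genes had log2 folds below 0, between −0.12 for hhf2 and −0.02 for htb1, and none was called. In 4 of them (40%), hhf2, pht1, hhf1 and hhf3, every STF9 library lay below every STF6 library, beside 7.34% of all genes tested. The group's mean log2 CPM was 9.80, 9.79 and 9.71 in STF9 and 9.87, 9.82 and 9.82 in STF6, and the median log2 fold of −0.07 was −0.04 without STF9 replicate 3. Near-identical copies make the single histone values uncertain. Cell-cycle genes had medians of 0.01 for 14 targets of the G1-S factor MBF and 0.02 for 15 genes of septation and late mitosis, with no call. By p, ctp1, mrc1, yox1 and cdt2 led the first of these groups with folds of 0.27, 0.19, 0.24 and −0.13, and etd1, adg2, spo12 and sid2 the other with 0.25, 0.10, −0.16 and −0.10.

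**Figure D4:**
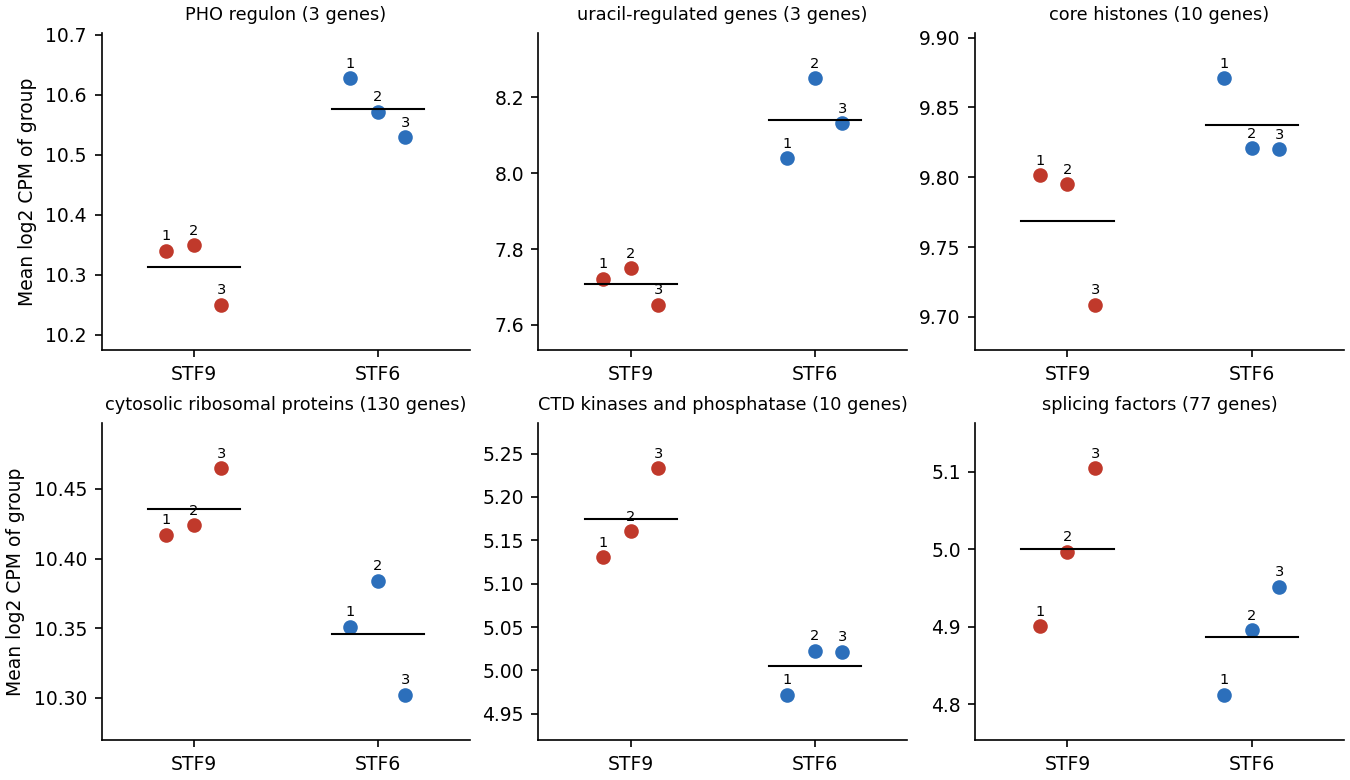
Mean log2 CPM of 6 gene groups in each library (vertical axes, each with its own range), with STF9 left of STF6; points are libraries with their replicate numbers and lines are group means. The PHO, uracil-regulated, histone, ribosomal protein and CTD panels show no overlap between the groups, and the splicing panel does.

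Energy metabolism differed little. The 52 genes of the respiratory chain and ATP synthase had a median of −0.05, no call, and 4 higher and 10 lower at an unadjusted p under 0.05. cox1102, qcr6, atp3 and atp18 had folds of −0.63, 0.20, −0.18 and −0.15. The 74 mitochondrial ribosomal protein genes had a median of 0.01, with 10 higher and 7 lower at that level. mrpl9, mrp51 and mrpl3 had folds of 0.34, −0.22 and 0.33. Glycolysis and fermentation genes, 16 tested, had a median of −0.04. gpd3, a glyceraldehyde 3-phosphate dehydrogenase, had 783, 679 and 667 CPM in STF9 and 1120, 816 and 776 CPM in STF6. STF9 replicate 1 overlapped with STF6 replicate 3, STF6 replicate 1 was the highest library, and the fold of −0.35 ± 0.09 did not pass (edgeR adjusted p = 0.127). The enolase gene eno101 had a fold of −0.21, adh1 and hxk1 of −0.08 each. The 8 hexose transport and glucose-repressed genes lay between −0.23 for ght4 and 0.25 for ght1.

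Stress genes gave no call. Of the 12 core environmental stress genes, rds1 had 111, 115 and 107 CPM in STF9, against 138, 128 and 126 CPM in STF6, a fold of −0.24 ± 0.05 (edgeR adjusted p = 0.0706). hsp9 had a fold of −0.21, isp6 of −0.07 and ntp1 of −0.06, and the median was −0.04. The 13 heat shock and chaperone genes had a median of −0.07, with ssc1 at −0.17, wos2 at 0.16, psi1 at −0.13 and ssa2 at −0.09. The 10 Pap1-dependent oxidative stress genes had a median of −0.02 and 0 genes at an unadjusted p under 0.05 by edgeR, with folds of −0.09 to 0.23, the highest being srx1. The 45 proteasome genes had a median of 0.00, with pts1, pup2, rpt1 and rpn1302 at −0.16, 0.18, 0.18 and 0.20.

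Metal and nutrient genes also lay near 0. The 8 iron acquisition genes tested had a median of 0.00, with the siderophore synthetase gene sib1 at −0.14. The siderophore transporter gene str1 had 12.8, 17.8 and 12.3 CPM in STF9, against 11.9, 11.3 and 10.9 CPM in STF6. STF9 replicate 2 was the highest, and the fold of 0.33 ± 0.13 was 0.15 without it. Copper and zinc genes, 7 tested, had a median of 0.01, led by ctr4 at 0.19 and zhf1 at 0.10. Nitrogen and peptide transport genes, 12 tested, had a median of −0.05, with aat1, put4, ptr2 and mae1 at 0.19, −0.16, −0.12 and −0.06. Over all 168 transporter genes, the 2 calls were tgp1 and SPBC1683.01, both lower in STF9, and the median was −0.03. Amino acid biosynthesis genes, 39 tested, had a median of −0.01, with arg3, met11 and cys11 at −0.17, −0.14 and −0.09. The 20 sterol synthesis and hypoxia genes had a median of −0.01, with erg11, erg9, erg25 and erg10 at 0.11, −0.09, 0.08 and 0.07.

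Regulators showed no call either. The 84 protein kinase genes had a median of −0.03, with cki3, ssp1 and lkh1 at −0.14, −0.12 and 0.18 after cdk9. The 115 transcription factor genes had a median of −0.01. sfc2, which encodes TFIIIA, had a fold of 0.35, the TFIID subunit genes taf7 and taf73 of 0.32 and 0.24, and the TFIIA subunit gene toa2 of −0.19. Mating genes, 19 tested, had a median of −0.01, with mfm2, ste6, ste11 and sxa2 at −0.83, −0.27, −0.21 and 0.23. Among 60 genes of meiosis and sporulation the median was 0.02. meu6 had 5.65, 5.72 and 6.91 CPM in STF9, against 3.21, 3.14 and 4.93 CPM in STF6, and its fold of 0.73 ± 0.18 did not pass (edgeR adjusted p = 0.102). rec10, mes1 and spn6 had folds of 0.37, −0.22 and 0.74.

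Of the marker genes often used in fission yeast strains, ura4 had 0 counts in all 6 libraries, a level that a count of 0 bounds at about 3 counts a library. his3 had 10.6, 7.70 and 3.87 CPM in STF9 and 12.8, 7.38 and 18.8 CPM in STF6. These libraries overlapped and its fold of −0.79 ± 0.27 did not pass (edgeR adjusted p = 0.207). leu1 and ade6 had folds of −0.03 and 0.06. rpb1, the gene with the T4A allele, had 55.0, 52.7 and 54.2 CPM in STF9 and 51.6, 51.6 and 45.3 CPM in STF6, a fold of 0.12 ± 0.07 (edgeR adjusted p = 0.403).

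Non-coding RNAs held none of the 17 calls, all of which were among the 4897 genes whose product is no RNA. The 561 antisense RNAs had a median log2 fold of 0.05, with 339 (60.4%) above 0, beside 52.1% of all genes. At an unadjusted p under 0.05 by edgeR, 42 (7.49%) were higher and 14 (2.50%) lower. Both shares lay under those of all genes, 10.1% and 6.05%. Without STF6 replicate 3 the median of the antisense RNAs was 0.08. SPNCRNA.1626 had the smallest p of them, with 197, 208 and 197 CPM in STF9 and 206, 269 and 266 CPM in STF6. It had overlapping libraries and a fold of −0.30 ± 0.07 (edgeR adjusted p = 0.0944). SPAC56F8.12-antisense-1, cdc28-antisense-1 and SPAC23C11.06c-antisense-1 had folds of 0.47, 0.39 and 0.38. SPBC23G7.13c-antisense-1 had a fold of 0.55 and SPAC4A8.10-antisense-1 one of 0.35. The 317 intergenic and other non-coding RNAs had a median of −0.02. SPNCRNA.1115, marked in the deposited product text as a possible alternative UTR, had 6.69, 5.04 and 4.92 CPM in STF9, against 7.93, 7.11 and 26.4 CPM in STF6. STF6 replicate 3 alone was high, and the fold of −1.26 ± 0.34 did not pass (edgeR adjusted p = 0.132). SPNCRNA.1369, SPNCRNA.1267 and SPNCRNA.1220 had folds of −0.43, −0.78 and −1.03.

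Small nucleolar and small nuclear RNAs, 36 tested, had a median of −0.11, no call, and 0 higher and 7 lower at an unadjusted p under 0.05. In 10 of them (27.8%) every STF9 library lay below every STF6 library, beside 7.34% of all genes tested. snoR61 had 6.48, 5.94 and 6.33 CPM in STF9, against 9.21, 7.86 and 12.3 CPM in STF6, a fold of −0.63 ± 0.15 (edgeR adjusted p = 0.102). snoU14, snR30 and snoZ16 had folds of −0.22, −0.33 and −0.62. These RNAs largely lack poly(A) tails, so poly(A)+ libraries measure only what was carried along or polyadenylated. The median was −0.03 both without STF6 replicate 1 and without STF6 replicate 3, and −0.18 without STF6 replicate 2.

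Repeat and surface families were close to their spread. The 21 wtf genes, a family of spore killers, had a median of −0.12 with 17 below 0 and no call, and the median was −0.05 without STF9 replicate 3 and −0.08 without STF6 replicate 2. wtf14, wtf4, wtf15 and wtf11 had folds of −0.17, −0.43, −0.20 and −0.12. The 2 Tf2 retrotransposons that passed the filter, Tf2-2 and Tf2-10, had folds of −0.53 and −0.11. Near-identical copies make single values in both families uncertain. The 41 cell surface and cell wall genes had a median of −0.01. pfl7, a flocculin gene, had 0.575, 0.622 and 0.419 CPM in STF9, against 1.42, 0.928 and 1.27 CPM in STF6, and its fold of −1.14 ± 0.32 did not pass (edgeR adjusted p = 0.137). exg3, SPAPB2C8.01 and gas5 had folds of −0.18, 0.13 and 0.10. Among 15 pseudogenes, with a median of 0.02, SPBPB21E7.08, SPCC18B5.02c, SPAC23D3.05c and SPAC977.13c had folds of 0.25, 0.41, 0.37 and −0.62.

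Genes of no assigned function completed the table. The 217 sequence orphans had a median of −0.01, and SPAC922.04, SPBC1685.17, SPBC12C2.01c and mug130 had folds of −0.17, 0.42, −0.26 and 0.58. The 79 uncharacterised conserved proteins had a median of 0.01, with SPAC12G12.07c, abc3, SPBC1604.03c and SPCC663.08c at 0.24, −0.30, −0.27 and 0.31. Further genes at or above a mean level of 3 log2 CPM that had large folds without overlap were sqs2 at 0.44, SPAC343.20 at 0.41, SPCC576.17c at 0.40, SPCC569.01c at 0.39, hsp3101 at 0.38, SPAC17C9.11c at 0.37 and the amino acid transporter gene SPBPB2B2.01 at −0.53. None of these passed.

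How small a difference could be seen varied with the level of the gene. The median standard error of the log2 fold was 0.0795 over all genes. It was 0.303 for the 486 genes with a mean log2 CPM under 1, 0.105 for the 1263 genes between 3 and 5, and 0.0435 for the 391 genes of 9 or more. Of the 17 calls, 1 fell between a log2 CPM of 1 and 3, 3 between 5 and 7, 8 between 7 and 9 and 5 at 9 or more. The 192 genes not counted as within 2-fold had a median level of −0.15 log2 CPM, beside 5.58 for the other genes. They include tlh2, whose interval lay wholly beyond 2-fold, and 2 genes with folds so near 0 that no interval was computed.

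**Figure D5:**
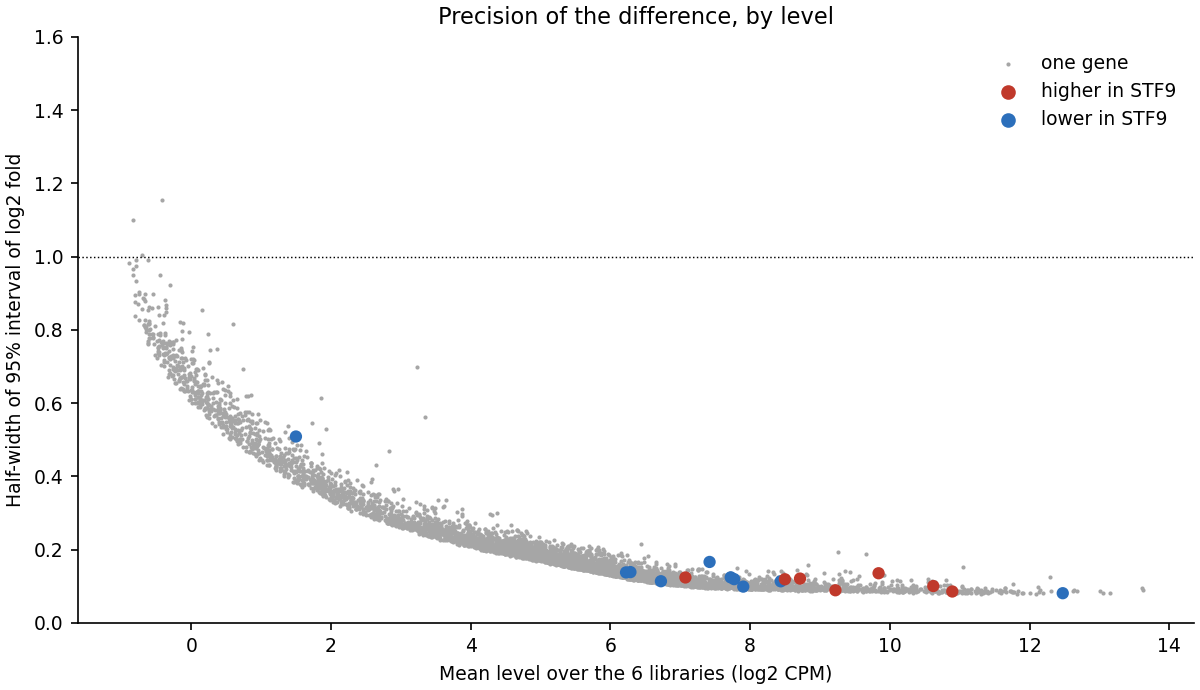
Half-width of the 95% confidence interval of the log2 fold (vertical axis) against the mean level over the 6 libraries in log2 CPM (horizontal axis), 1 point a gene, with the 17 called genes coloured by direction. Intervals narrow as the level rises, and the dotted line marks a half-width of 1, which is 2-fold. Most genes lie far below it, and 2 genes without an interval are left out.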

How the data were processed

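Hot acid phenol RNA, a stranded poly(A)+ library kit and paired-end sequencing were used, per the labels' protocols. HISAT2 2.1.0, SAMtools, HTSeq 0.10.0, DESeq2 and the build ASM294v2 are named in the submitters' processing notes. Annotation, strand setting and handling of multiply matching reads are not stated there. The authors deposited raw counts per gene, with no normalization. Gene names (4839) and product text were taken from their deposited DESeq2 tables, whose other columns were not used. 1 all-zero duplicate line was dropped. RefSeq's annotation served for gene order, strand and overlaps only and matched 5861 of the genes tested. It is of another build, so no coordinates or sequences are printed.

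Counts of the 3 STF9 and 3 STF6 libraries were fitted in R 4.3.3 with edgeR 4.0.16: filterByExpr with its defaults (0.521 CPM), TMM scaling, glmQLFit with group as the only term, and glmQLFTest with Benjamini-Hochberg adjustment at 0.05. The common biological coefficient of variation was 0.0546, against 0.104 with the T4A libraries added. Standard errors were derived from the same fit, as the size of the log2 fold over the square root of its F statistic. The 95% confidence intervals use these with a t quantile, so both are approximate. Scripts were tested on simulated counts. Plots used Python 3.11.15 and matplotlib 3.10.9.

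The comparison, the gene lists and the tests were chosen with earlier results of these data known. Named genes were the 10 largest folds each way among called genes (mean level 1 log2 CPM or more, libraries not overlapping), the 10 largest each way among all non-overlapping genes at 3 log2 CPM or more, the 10 smallest p, the members of lists of up to 10 genes, and the 4 members with the smallest p of longer lists. Members of the iron, copper, oxidative stress, hexose and histone lists, and of long lists where not singled out, are given by range or median; tlh1, ura4 and neighbours of called genes were named outside the rule, after their values were seen. The set of genes nearest the chromosome ends was likewise formed after values were seen. The symbols vtc1, siw14, zip4, ilv3, hom2, hom6, thr4 and cyb5 matched no gene in the table. Alternatives were DESeq2 1.42.0, median-ratio scaling, library size alone, 2 other filters, a robust spread estimate, a 1.5-fold threshold, all 9 libraries, the replicate number as a block, and each library left out.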

Additional observations from a re-analysis of the deposited data

How the results depend on the processing

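The main counts were 7 genes higher and 10 lower in STF9, with 5678 intervals within 2-fold. DESeq2 gave 15 higher and 19 lower, with an adjusted p for 3480 genes only. A filter of at least 1 CPM in all 6 libraries gave 4 higher, and library size alone 1 higher. A test against a 1.5-fold threshold gave 0 higher and 1 lower (tlh2). With all 9 libraries in the fit, edgeR called 0 higher and 0 lower, with 178 genes at an unadjusted p under 0.05. Median-ratio scaling gave 9 higher and 12 lower, no filter 9 and 11, and the robust estimate 5 and 10. Leaving out 1 library at a time gave 0 to 242 higher, 6 to 80 lower and 5583 to 5611 intervals within 2-fold. Of the 17 genes called, 17 were called without STF9 replicate 1, 16 without STF6 replicate 3, 9 without STF6 replicate 1, 8 without STF6 replicate 2, 7 without STF9 replicate 3 and 6 without STF9 replicate 2. SPBPB2B2.06c, ecl3, tgp1, tlh2, urg1 and urg2 were called in all 6 of these fits. The 1.5-fold test gives no interval, so none is counted there.

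With the replicate number as a block the counts were 229 higher and 78 lower. At an unadjusted p under 0.05 by edgeR there were 1398 genes, beside 945 in the main fit. The main fit had no block, as the labels name no batch. Correlations between same-numbered libraries' deviations from their group means were 0.245, −0.0604 and 0.0983. With 3 libraries a group, these cannot settle whether the numbers pair the samples.

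Folds near 0 changed sign. kcs1 and SPBC1271.10c had −0.00487 and −0.00214 with DESeq2, −0.00616 and −0.00432 with library size alone, and −0.00472 and −0.00203 with median-ratio scaling. Over the fits with 1 library left out, signs also changed for kcs1 (−0.0405 to 0.0301), SPBC1271.10c (−0.0121 to 0.0226), ipk1 (−0.0647 to 0.0251), mcs6 (−0.0222 to 0.0640), pho7 (−0.0297 to 0.0217), leu1 (−0.0920 to 0.0193), lsk1 (−0.0757 to 0.0218), htb1 (−0.0343 to 0.0163) and Tf2-10 (−0.407 to 0.0417). The causes were not tested.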
